A study of Mus musculus with 15 samples.

Results

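Severely swollen knee joints were compared with mildly swollen ones in mice with collagen-induced arthritis (CIA), a model of inflammatory arthritis that follows immunization against a collagen of cartilage. The comparison took the 3 arrays whose titles name severe joint inflammation and the 3 whose titles name mild joint inflammation, together 6 of the 15 arrays of the study, and covered all genes measured on them. It asks which transcripts of the joint tissue differ between joints with strong and with slight swelling, once inflammation is present in both. Per the labels, both groups had received the same treatment, type II collagen in FCA at day 0 (100 µg) and a boost of 100 µg i.p. at day 21, and RNA was taken from knee joint synovium. The other 9 arrays, 3 in each group, were healthy naive joints and CIA joints with no swelling or moderate swelling. For the naive joints the protocol field also describes this immunization. The strain, age and sex of the mice, the day of sampling and the way swelling was graded are not given in the sources used here. Nothing in the labels says that replicates came from separate mice, and the p-values therefore cover no more than the spread among these arrays, which could be technical.

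The synovium is the thin tissue that lines a joint, with a surface layer of macrophages and fibroblasts over a looser layer that holds vessels and fat. In arthritis it thickens into pannus, a mass of activated fibroblasts and leukocytes that grows over cartilage and bone. Pannus is known for matrix metalloproteinases, which cut collagens and proteoglycans, and for osteoclasts, which dissolve bone. Skeletal muscle and fat lie beside the knee synovium and can come with it in a dissection.

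Signals are MAS5 intensities of Affymetrix probe sets, scaled so that the trimmed mean of each array was 150.001. Fold changes are on the scale of log2(signal + 16), with the standard error (SE) of limma, and are positive where a gene was higher in severely swollen joints. Adding 16 (the pseudocount) pulls the changes of dim genes towards 0, and their size depends on the number added. A gene was called where the adjusted p of limma (Benjamini-Hochberg over the 14314 genes tested, two-sided) was under 0.05. With 3 arrays against 3, an exact permutation test of a single gene cannot give a p below 0.1.

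The arrays of the same group were not alike. On the first principal component, which held 65.3% of the variance, the severe arrays lay at 86.2, 57.0 and 72.8 and the mild arrays at 24.3, -10.2 and 48.8. Mild replicate 2 stood apart, on the side of the arrays without swelling, which lay at -66.1, -67.7 and -92.0, and of the naive arrays at -87.3, -85.0 and -90.5. The moderate arrays lay at 70.4, 76.2 and 62.9, within the range of the severe ones. The median signal was 47.6, 44.7 and 47.1 on the severe arrays and 42.4, 44.9 and 41.6 on the mild ones. The ratio of 3′ to 5′ beta-actin probe sets, a sign of RNA integrity, was 1.27, 1.26 and 1.21 on the severe arrays and 1.13, 1.16 and 1.19 on the mild ones. These groups did not overlap in that ratio. For the Gapdh probe sets the same ratio was 0.96, 0.83 and 0.89 on the severe and 0.86, 0.85 and 0.84 on the mild arrays, which overlapped. The part of RNA integrity in the results was not tested. Prg4, which encodes the lubricin of the synovial lining, had signals of 8411, 7686 and 9998 in severe and 6280.1, 6448 and 7469 in mild joints, so the lining marker was bright in both. Muscle genes were bright too: the fast-fibre list of 14 genes summed to 107114, 100907 and 139810 in severe joints and to 102949, 101074 and 95790 in mild joints. In such bulk samples fewer cells of a type and less RNA per cell cannot be told apart.

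**Figure D1:**
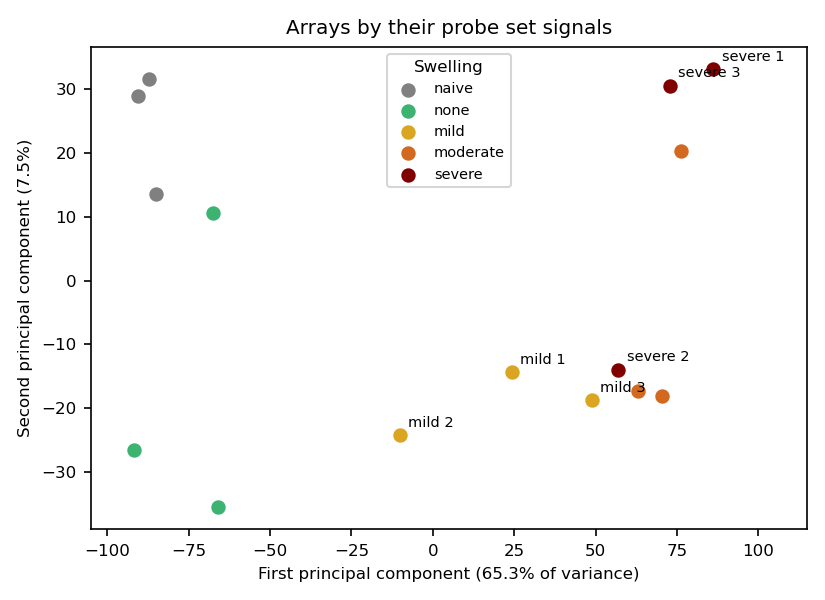
First against second principal component of the log2 signals (no units, share of the variance in the axis labels), 1 point for each of the 15 arrays, coloured by degree of swelling. The severe arrays lie between 57.0 and 86.2 on the first component and the mild arrays between -10.2 and 48.8, with mild replicate 2 the lowest of the swollen joints.

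Of the 14314 genes tested, 879 rose in severe against mild joints (6.14%) and 878 fell (6.13%), and 4136 had an unadjusted p under 0.05. The median log2 fold change over all genes tested was 0.06. Among the called genes, 210 rose by more than 1 on the log2 scale and 198 fell by more than 1. The 15 largest increases with no overlap between the 3 severe and the 3 mild signals were in Mmp13, Mfap4, Matn4, Sln, Ecrg4, Aqp5, Smoc1, Chil1, Crabp2, Spats2, Col11a1, Tspan11, Slpi, Col8a2 and Thbs2. The 15 largest decreases, likewise without overlap, were in Rrad, Nmrk2, Mlf1, Dhrs7c, Tlcd3b, Asb5, Fbp2, Mylk4, Asb11, Cd24a, Prkg1, Ckmt2, Cnksr1, Togaram2 and Plin4.

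The number of calls hung on single arrays. Leaving out severe replicate 1 left 117 genes higher and 185 lower, leaving out mild replicate 2 left 243 and 319, leaving out severe replicate 3 left 318 and 456, and leaving out mild replicate 1 left 424 and 456. Without mild replicate 3 the counts were 1389 and 1206, and without severe replicate 2 they were 1314 and 1306. In all of these 6 fits 111 genes were called higher and 174 lower, and these are named below as called whichever array was left out. No gene called in the full comparison was called in the opposite direction in any of the 6, but these fits share most of their arrays with it. With the array medians aligned, 532 genes were higher and 1072 lower, and the median change of all genes was -0.02. With arrays scaled on hybridization controls 147 were higher and 242 lower, and that median was -0.05. A fit of the 6 severe and mild arrays alone, with fewer residual degrees of freedom, called 30 higher and 53 lower.

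**Figure D2:**
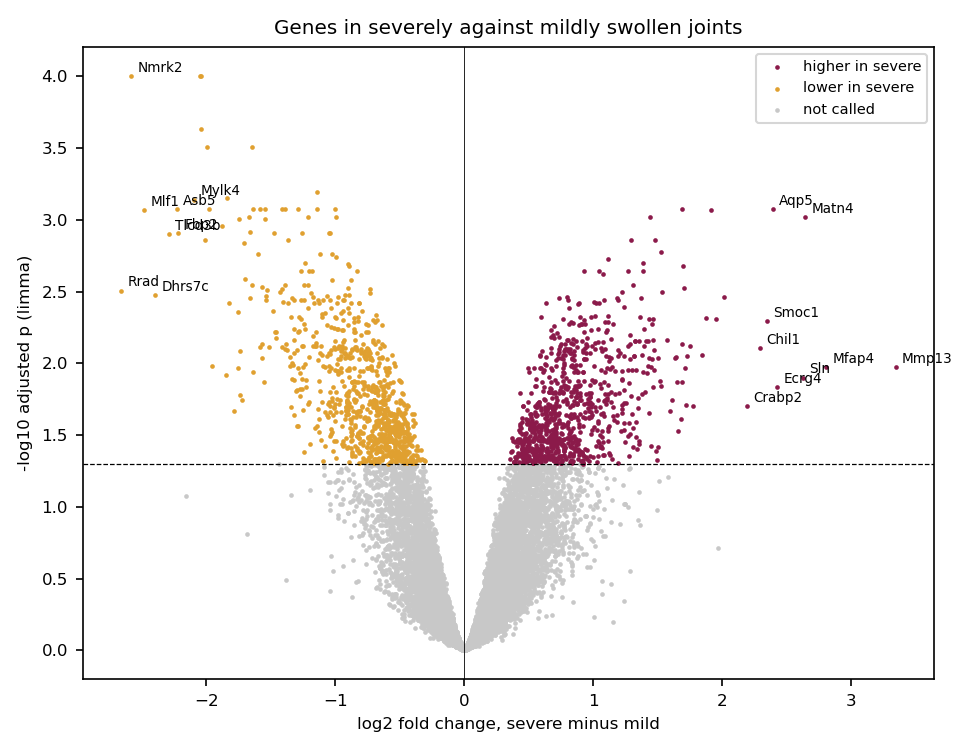
Each point is 1 of the 14314 genes tested, with the log2 fold change (severe minus mild) on the x axis and -log10 of the adjusted p of limma on the y axis. The dashed line marks an adjusted p of 0.05, above which 879 genes lie to the right and 878 to the left, with Mmp13 farthest right and Rrad farthest left.

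Proteases that cut the joint matrix were higher in severe joints. Of 15 matrix metalloproteinase and ADAMTS genes tested, 8 rose (53.3%, against 6.14% of all genes tested) and 1 fell (6.67%, against 6.13%), with a median log2 fold change of 0.85 against 0.06 over all genes. The count of genes that rose was 2 without severe replicate 1, 3 without mild replicate 2 or severe replicate 3, 4 without mild replicate 1 and 5 with arrays scaled on hybridization controls, where none fell. Mmp13, the main collagenase of cartilage breakdown in mice, is shown first with Mmp3, the stromelysin that cuts proteoglycans and activates other proteases, and with Mmp14, a membrane-bound collagenase that activates Mmp2. Their promoters are printed because AP-1, a factor that binds TGANTCA, is a known regulator of Mmp13 and Mmp3. The windows run from 250 bases before the start of the gene to 50 after it (RefSeq, GRCm38.p6, plus strand), at chr9:7272264-7272563 for Mmp13, chr9:7445572-7445871 for Mmp3 and chr14:54431348-54431647 for Mmp14, and capitals mark TGANTCA.
Mmp13: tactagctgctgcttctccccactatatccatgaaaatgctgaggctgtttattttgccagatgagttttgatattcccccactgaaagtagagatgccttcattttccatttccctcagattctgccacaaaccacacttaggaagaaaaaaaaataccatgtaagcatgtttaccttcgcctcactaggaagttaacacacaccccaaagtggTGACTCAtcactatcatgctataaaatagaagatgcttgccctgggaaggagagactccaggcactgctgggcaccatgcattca
Mmp3: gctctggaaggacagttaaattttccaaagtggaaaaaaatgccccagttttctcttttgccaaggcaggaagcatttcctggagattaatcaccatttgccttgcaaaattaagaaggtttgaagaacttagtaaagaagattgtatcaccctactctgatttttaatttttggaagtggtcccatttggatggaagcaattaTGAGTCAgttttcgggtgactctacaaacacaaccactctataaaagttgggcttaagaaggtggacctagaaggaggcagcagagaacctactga
Mmp14: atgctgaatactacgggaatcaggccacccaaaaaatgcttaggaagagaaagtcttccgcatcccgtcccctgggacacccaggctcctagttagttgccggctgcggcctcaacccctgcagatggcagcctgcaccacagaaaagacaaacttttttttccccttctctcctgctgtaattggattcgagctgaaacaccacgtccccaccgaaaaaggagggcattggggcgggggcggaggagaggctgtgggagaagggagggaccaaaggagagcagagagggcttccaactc
The letters begin at position -35 in the Mmp13 window and at -46 in that of Mmp3, counted from the start, and the Mmp14 window does not hold them. TGANTCA is its own reverse complement, so 1 scan covers both strands. It was in 7.81% of the 32851 windows of the RefSeq table. Of the 8 protease genes that rose, 5 had a window in that table and 2 of these held the letters. A match is a description of the sequence and says nothing of binding in these joints.

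Mmp13 had the largest increase of all genes tested. Its signal was 3554, 3752 and 2099 in severe joints and 215, 82.2 and 1169.8 in mild joints. The 3 severe signals all lay above the mild ones, among which mild replicate 3 was the highest. The log2 fold change was 3.35 ± 0.73 (adjusted p = 0.0106, limma), with a 95% interval of 1.80 to 4.89. Without mild replicate 2 it was 2.54 (adjusted p = 0.0537) and without severe replicate 1 it was 3.24 (adjusted p = 0.0576), so 2 arrays each decided the call but not its direction. The naive joints had Mmp13 signals of 0.8, 7.1 and 3.1, the joints without swelling 157, 9.6 and 14.4 and the moderately swollen joints 2914, 4768 and 3572. The spread among the mild arrays was thus wide, with mild replicate 2 under the highest joint without swelling and mild replicate 3 well above all of those joints. Mmp14 had signals of 3817, 2924 and 3298 in severe and 897, 689 and 1649.7 in mild joints. All 3 severe joints were above the highest mild one, and the rise of 1.71 ± 0.28 (adjusted p = 0.00298, limma) was called whichever array was left out.

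Mmp3 had signals of 5659.7, 3298 and 5077 in severe joints and 2147, 889.8 and 3038 in mild joints. Its groups did not overlap, but severe replicate 2 and mild replicate 3 were close, and the log2 fold change of 1.33 ± 0.37 (adjusted p = 0.0327, limma) was 0.83 without mild replicate 2 (adjusted p = 0.152). That call was also lost without mild replicate 1, severe replicate 1 or severe replicate 3. Mmp2, the gelatinase that Mmp14 activates, had signals of 8028, 4864 and 8531 in severe and 3321, 1509 and 3658 in mild joints and rose by 1.39 ± 0.31 (adjusted p = 0.0115, limma). Mmp9, a gelatinase of neutrophils and osteoclasts, had signals of 1251, 620.2 and 1070.0 in severe and 247, 197 and 458 in mild joints and rose by 1.68 ± 0.44 (adjusted p = 0.0245, limma). Neither gene overlapped between the groups, and both calls were lost without mild replicate 2 (adjusted p = 0.052 and 0.111), without severe replicate 1 and without severe replicate 3, that of Mmp9 also without mild replicate 1.

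Adamts12, a protease that cuts the cartilage protein Comp, rose by 1.10 ± 0.21 (adjusted p = 0.00601, limma), with signals of 583, 426 and 372 in severe and 202, 135 and 300.1 in mild joints, and was called whichever array was left out. Mmp19 (0.91 ± 0.28) and Mmp23 (0.85 ± 0.19) completed the 8 that rose (adjusted p = 0.0422 and 0.0114, limma). Adamts1, an aggrecan-cutting protease, was the member that fell, with signals of 461, 393 and 578 in severe and 883, 752 and 702 in mild joints and a log2 fold change of -0.70 ± 0.19 (adjusted p = 0.0274, limma). Each of these 3 calls was lost without severe replicate 1 (adjusted p = 0.171, 0.0643 and 0.107) and without mild replicate 1, those of Mmp19 and Adamts1 also without mild replicate 2, those of Mmp19 and Mmp23 without severe replicate 3, and that of Adamts1 without severe replicate 2.

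Among protease inhibitors 2 of 8 rose (25.0%, against 6.14% of all genes) and none fell (median log2 fold change 0.26). The count that rose was 1 with arrays scaled on hybridization controls or without mild replicate 2, severe replicate 1 or severe replicate 3. It was 3 without mild replicate 3 or severe replicate 2. With quantile normalization, with the array medians aligned, without mild replicate 1 and without severe replicate 2, 1 fell. Slpi, a secreted inhibitor of neutrophil elastase, had signals of 4329, 2839 and 4330.4 in severe and 724, 719 and 1989 in mild joints, with severe replicate 2 the lowest of its group and still above mild replicate 3. It rose by 1.88 ± 0.34 (adjusted p = 0.00484, limma) and was called whichever array was left out. Timp2, an inhibitor that also takes part in Mmp2 activation, rose by 1.06 ± 0.24 (adjusted p = 0.0139, limma), a call lost without mild replicate 2, severe replicate 1 or severe replicate 3. Timp1, an inhibitor of most metalloproteinases, had signals of 6091, 3835 and 6164 in severe and 3554, 3523 and 4732 in mild joints, which overlapped. Its log2 fold change was 0.43 ± 0.42 (adjusted p = 0.545, limma), with an interval of -0.47 to 1.32.

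Fibroblast collagens and other matrix genes were higher in severe joints, with 12 of 22 tested called higher and none lower (54.5% against 6.14% of all genes), and a median log2 fold change of 0.98. Their count was 2 without severe replicate 1, 4 without mild replicate 2 or severe replicate 3, 6 without mild replicate 1, 16 without mild replicate 3, 19 without severe replicate 2 and 3 with arrays scaled on hybridization controls. The 12 were 3 chains of the fibril regulator collagen V (Col5a1, Col5a2 and Col5a3), 3 of the microfibril collagen VI (Col6a1, Col6a2 and Col6a3), Col14a1, Col16a1, Col18a1, Sparc, Fap and Mfap4. Mfap4, a glycoprotein of elastic microfibrils, had signals of 1173, 487 and 1208 in severe and 292, 12.5 and 226 in mild joints. Mild replicate 2 lay near the naive level (6.3, 6.7 and 9.6) and the other mild joints did not. Mfap4 rose by 2.81 ± 0.61 (adjusted p = 0.0106, limma). Without mild replicate 2 the change was 1.72 (adjusted p = 0.00957), and without severe replicate 1 the call was lost (adjusted p = 0.0655).

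Col16a1, which links fibrils to other matrix, had signals of 1305, 867 and 1110.5 in severe and 392, 221 and 682 in mild joints. Col18a1, a collagen of basement membranes and the source of endostatin, had signals of 1197, 826 and 961 in severe and 430.5, 218 and 552 in mild joints. Both groups were apart in each gene, and the increases of 1.43 ± 0.28 and 1.36 ± 0.27 (adjusted p = 0.00696 and 0.00696, limma) were called whichever array was left out. Col8a2, a short-chain collagen among the 15 largest increases, had signals of 528, 393 and 377 in severe and 145, 38.2 and 201 in mild joints and rose by 1.84 ± 0.38 (adjusted p = 0.0088, limma). That call was lost without severe replicate 1 (adjusted p = 0.0565). Fap, a surface protease of activated fibroblasts, rose by 1.16 ± 0.31 (adjusted p = 0.025, limma), with 1697, 1367 and 1805 in severe and 944, 365 and 1040.0 in mild joints. Its change without mild replicate 2 was 0.69 (adjusted p = 0.0922), and its call was also lost without severe replicate 1 or severe replicate 3.

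The bulk fibril collagens did not pass the test. Col1a1, the main chain of collagen I, had signals of 10370.0, 7699.8 and 13191 in severe and 6457, 4608 and 6691 in mild joints, which did not overlap, with a log2 fold change of 0.80 ± 0.30 (adjusted p = 0.0924, limma). Col3a1, which forms collagen III, had signals of 10974, 9436 and 14006 in severe and 8668, 7740.4 and 9084 in mild joints and a log2 fold change of 0.42 ± 0.19 (adjusted p = 0.161, limma). Postn, which encodes the fibroblast protein periostin, had 5799, 5923 and 7766 in severe and 4149, 2492 and 5443 in mild joints, a change of 0.75 ± 0.27 (adjusted p = 0.0863, limma). Their intervals of 0.16 to 1.44, 0.01 to 0.82 and 0.16 to 1.33 lay above 0, so the missed threshold does not show that they were alike. The call of Col1a1 was gained without severe replicate 2 (adjusted p = 0.0441) and that of Postn without mild replicate 3 (adjusted p = 0.024). Cthrc1, a secreted protein of activated fibroblasts, had a log2 fold change of 1.51 ± 0.52 (adjusted p = 0.0664, limma), with signals of 2837, 1747 and 3747 in severe and 1376, 296 and 1877 in mild joints that overlapped in 1 pair, and passed without mild replicate 3 or severe replicate 2 (adjusted p = 0.0156 and 0.0386).

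Enzymes that fold, trim and cross-link collagen were higher as well, with 7 of 14 tested called higher (50%, against 6.14% of all genes), none lower and a median of 0.79. The count was 0 without severe replicate 1, without mild replicate 2 or without severe replicate 3, 1 without mild replicate 1, 11 without mild replicate 3, 4 with the array medians aligned and 0 with arrays scaled on hybridization controls. The 7 were the lysyl hydroxylases Plod1, Plod2 and Plod3, the prolyl hydroxylase subunit P4ha3, the lysyl oxidase Loxl3, the procollagen C-proteinase Bmp1 and its enhancer Pcolce. Bmp1 rose by 1.22 ± 0.28 (adjusted p = 0.0129, limma), with signals of 1576, 1045 and 1524 in severe and 512, 483 and 761 in mild joints that did not overlap, a call lost without mild replicate 2, severe replicate 1 or severe replicate 3. Plod2, which makes the cross-links of scar collagen, rose by 1.03 ± 0.28 (adjusted p = 0.029, limma). Its change was 0.65 without mild replicate 2 (adjusted p = 0.13), and the call was also lost without mild replicate 1, severe replicate 1 or severe replicate 3.

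Matricellular proteins, which tune how cells meet the matrix, gave 4 genes called higher of 13 (30.8%, against 6.14% of all genes) and none lower (median 0.75). Smoc2, a matrix protein that binds growth factors, had signals of 1584, 1195 and 1292 in severe and 788, 595 and 794 in mild joints. It rose by 0.89 ± 0.15 (adjusted p = 0.00382, limma), without overlap and without dependence of the call on any 1 array. Thbs2, an inhibitor of vessel growth that also clears Mmp2, had signals of 2924, 2209.8 and 2755 in severe and 997, 265 and 1581 in mild joints, with mild replicate 2 far below the others. Thbs2 rose by 1.77 ± 0.44 (adjusted p = 0.0197, limma) and by 1.05 without mild replicate 2. Its call was lost without severe replicate 1 (adjusted p = 0.094) or severe replicate 3 (adjusted p = 0.061). Ecm1, an extracellular matrix protein (1.04 ± 0.28, adjusted p = 0.0261), and Ccn4, a secreted target of Wnt signalling (1.25 ± 0.36, adjusted p = 0.0354, both limma), completed the 4. Both of these calls were lost without mild replicate 1 or 2 or severe replicate 1 or 3, and the Ccn4 change was 0.76 without mild replicate 2. The count was 2 without mild replicate 1, mild replicate 2 or severe replicate 3, 1 without severe replicate 1 and 9 without mild replicate 3. Tnc, which encodes tenascin C of injured tissue, had signals of 2397, 1254 and 2379 in severe and 1071, 833 and 1829 in mild joints, which overlapped, and a change of 0.70 ± 0.35 (adjusted p = 0.2, limma; interval -0.04 to 1.45).

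**Figure D3:**
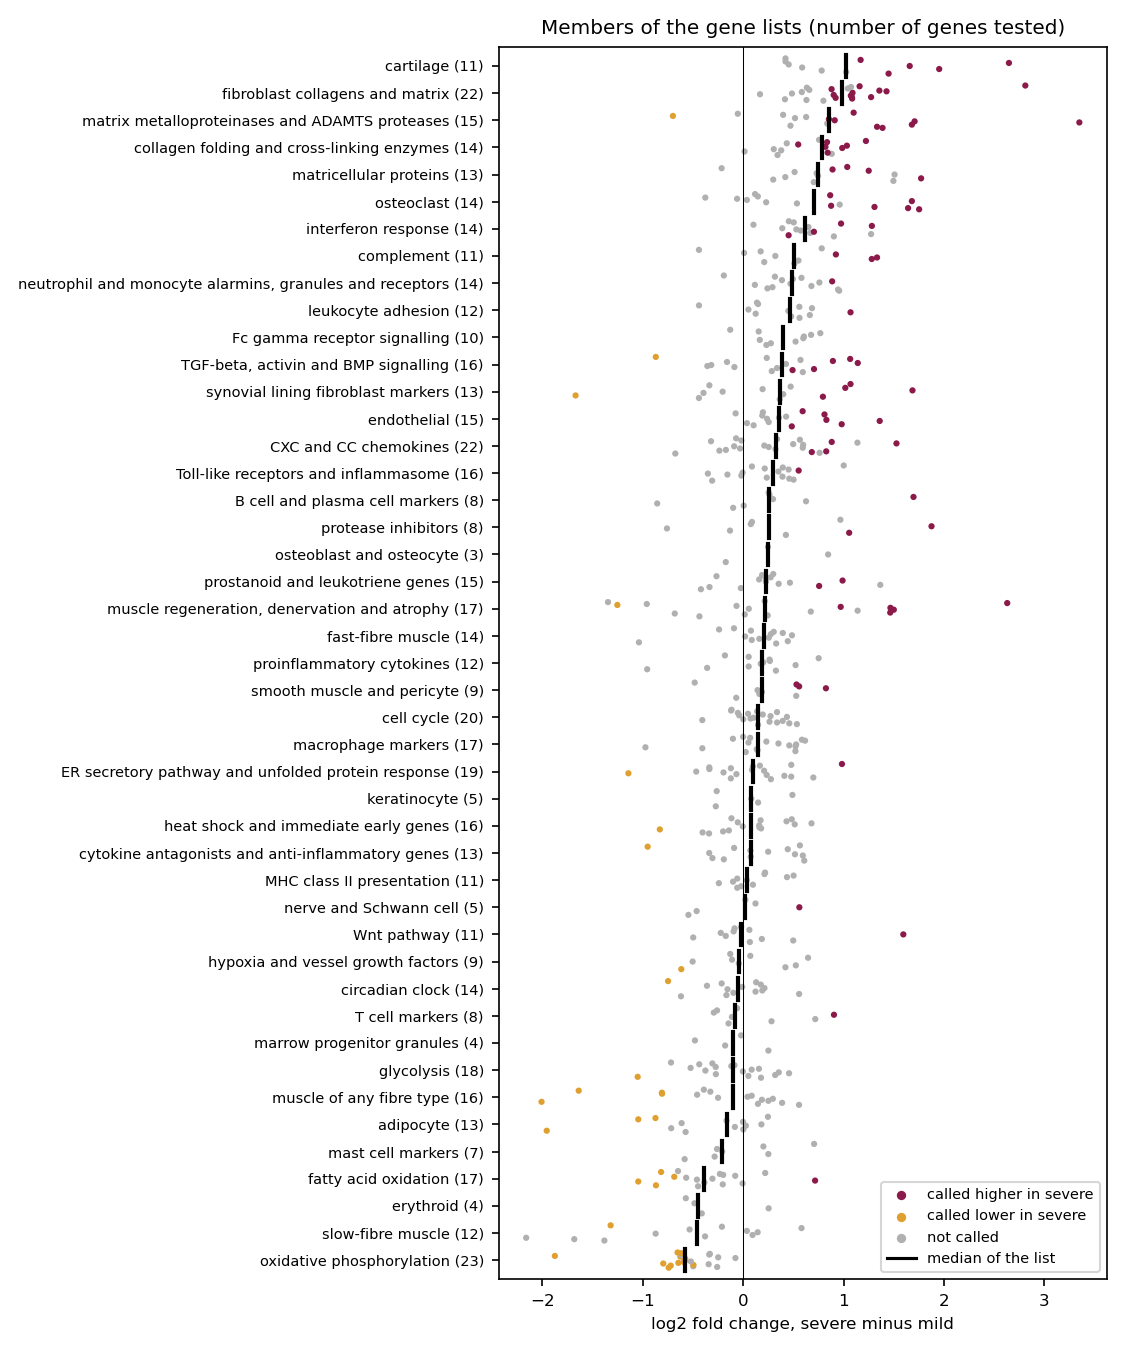
Log2 fold change (severe minus mild, x axis) of each tested member of 45 gene lists (rows, number of genes tested in parentheses, ordered by median), with called genes coloured and a black bar at the median. Cartilage, fibroblast matrix and protease lists lie farthest right and oxidative phosphorylation, with a median of -0.58, lies lowest.

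Genes of cartilage matrix were higher in severe joints, with 5 of 11 tested called higher (45.5%, against 6.14% of all genes), none lower and a median of 1.03. The listed genes Col9a2, Col9a3, Col10a1, Matn1 and Hapln1 were on the array but under the signal filter and not tested. With no filter 4 of 16 were called higher, and the median was 0.52. With the filter the count was 2 without severe replicate 1 or mild replicate 2, and 3 without severe replicate 3. Matn4, a matrilin that bridges matrix networks, had signals of 1288, 449.7 and 771 in severe and 92.4, 87.3 and 158 in mild joints, a 7.44-fold difference of means. The lowest severe joint was above the highest mild one, and the rise of 2.65 ± 0.36 (adjusted p = 0.000952, limma) was called whichever array was left out. Col11a1, a minor fibril collagen of cartilage, had signals of 646, 484 and 602 in severe and 148, 56.3 and 280.2 in mild joints and rose by 1.95 ± 0.35 (adjusted p = 0.00487, limma), also called whichever array was left out. Comp, the cartilage oligomeric matrix protein, had signals of 4741, 3062 and 4143 in severe and 1679.5, 440.5 and 2483 in mild joints and rose by 1.66 ± 0.46 (adjusted p = 0.0296, limma). The Comp change was 0.93 without mild replicate 2 (adjusted p = 0.103), and the call was also lost without severe replicate 1 or severe replicate 3. Acan, the aggrecan core protein, rose by 1.45 ± 0.42 and Chad, a leucine-rich protein of cartilage, by 1.17 ± 0.28 (adjusted p = 0.0376 and 0.0163, limma). The Acan signals overlapped (559, 255 and 307 in severe, 92.4, 56.6 and 299 in mild joints), and both calls were lost without severe replicate 1 or mild replicate 2, that of Acan also without mild replicate 1 or severe replicate 3. Col2a1, the chain of the cartilage collagen used for immunization, had signals of 307, 155 and 145 in severe and 67.1, 61.5 and 147 in mild joints, which overlapped, and a change of 1.03 ± 0.40 (adjusted p = 0.101, limma; interval 0.18 to 1.87). It passed without mild replicate 3 (1.37, adjusted p = 0.0341).

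Other genes among the 15 largest increases follow. Aqp5, a water channel of secretory cells, had signals of 276, 126 and 165 in severe and 27, 5.7 and 39 in mild joints and rose by 2.40 ± 0.31 (adjusted p = 0.000838, limma). Smoc1, a matrix protein that modulates BMP signalling, had signals of 1374, 865 and 973 in severe and 201, 71.6 and 469.5 in mild joints and rose by 2.35 ± 0.43 (adjusted p = 0.00505, limma). Chil1, a chitinase-like protein of inflamed joints, had signals of 1532, 1177 and 1734 in severe and 278, 161 and 506 in mild joints and rose by 2.30 ± 0.46 (adjusted p = 0.00777, limma). In all 3 genes the groups were apart, and the calls were made whichever array was left out. The same held for Spats2, an RNA-binding protein (2.01 ± 0.34, adjusted p = 0.00342), and for Tspan11, a tetraspanin (1.91 ± 0.25, adjusted p = 0.000856, both limma). Chil1 was not called with a pseudocount of 1 (adjusted p = 0.0567, limma). Ecrg4, a secreted peptide precursor, had signals of 1645, 1267 and 1624 in severe and 358, 55.3 and 821 in mild joints. Crabp2, which carries retinoic acid in cells, had signals of 762, 480.5 and 812 in severe and 167, 25.3 and 421 in mild joints. In both genes mild replicate 2 was by far the lowest of the 6 joints, and the changes of 2.43 ± 0.57 and 2.20 ± 0.55 (adjusted p = 0.0147 and 0.0198, limma) were 1.44 and 1.27 without it. Both calls were lost without severe replicate 1 (adjusted p = 0.0719 and 0.094), that of Crabp2 also without severe replicate 3.

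Osteoclast genes were higher in severe joints, with 6 of 14 tested called higher (42.9%, against 6.14% of all genes), none lower and a median of 0.70. The count was 1 without severe replicate 1 and 3 without mild replicate 1, mild replicate 2 or severe replicate 3. Acp5, the tartrate-resistant acid phosphatase of osteoclasts, had signals of 1353, 602 and 1376 in severe and 293, 173 and 512 in mild joints, with severe replicate 2 the lowest severe joint and still above the mild ones. Ctsk, the cathepsin that digests bone collagen and that fibroblasts also make, had signals of 3966, 2479 and 4001 in severe and 1328, 534 and 1759 in mild joints. They rose by 1.75 ± 0.35 and 1.64 ± 0.35 (adjusted p = 0.00762 and 0.00908, limma), and both calls were lost without severe replicate 1 alone (adjusted p = 0.053 and 0.0565). Atp6v0d2, a proton pump subunit needed for osteoclast fusion, had signals of 208, 146 and 182 in severe and 58.7, 44.2 and 89.2 in mild joints. It rose by 1.31 ± 0.21 (adjusted p = 0.00283, limma) and was called whichever array was left out. The fusion receptor Dcstamp (0.88 ± 0.25, adjusted p = 0.0354) and the pump subunit Tcirg1 (0.87 ± 0.21, adjusted p = 0.0171, both limma) rose too, and Mmp9, given above, was the sixth. The calls of these 3 were lost without mild replicate 1 or 2 and without severe replicate 1 or 3. Tnfsf11, which encodes the osteoclast factor RANKL, had signals of 135, 129 and 170.1 in severe and 61.8, 45.8 and 161 in mild joints, where mild replicate 3 lay within the severe range, and a change of 0.75 ± 0.30 (adjusted p = 0.105, limma; interval 0.12 to 1.38). It passed without mild replicate 3 (1.20, adjusted p = 0.00277).

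Of 13 synovial fibroblast markers, not all of them confined to the lining, 4 rose (30.8%, against 6.14% of all genes) and 1 fell (7.69%, near the 6.13% of all genes), with a median of 0.36. Cdh11, the cadherin that joins lining fibroblasts, had signals of 1269, 1395 and 1136 in severe and 511, 138 and 757 in mild joints and rose by 1.69 ± 0.39 (adjusted p = 0.0135, limma). It rose by 1.0 without mild replicate 2, and its call was lost without severe replicate 1 (adjusted p = 0.063). Vcam1, an adhesion molecule of lining fibroblasts and vessels, had signals of 825, 855 and 814 in severe and 448, 246 and 525 in mild joints. It rose by 1.07 ± 0.22 (adjusted p = 0.00816, limma) and was called whichever array was left out. Pdpn, a surface protein of activated fibroblasts, rose by 0.79 ± 0.19 and Htra1, a secreted serine protease, by 1.02 ± 0.23 (adjusted p = 0.0185 and 0.0133, limma), calls that were lost without mild replicate 2, severe replicate 1 or severe replicate 3. Clic5, an intracellular chloride channel protein, fell instead, with a change of -1.67 ± 0.23 (adjusted p = 0.000952, limma), with signals of 122, 201 and 202 in severe and 649, 808 and 366 in mild joints, and this held whichever array was left out. Clic5 is also expressed in muscle, and the naive joints had signals of 1043, 1021 and 1140.2. Prg4 had a change of 0.36 ± 0.23 (adjusted p = 0.315, limma; interval -0.12 to 0.85). The list's count of genes that rose was 1 without severe replicate 1 or with arrays scaled on hybridization controls and 2 without mild replicate 2 or severe replicate 3, and 3 fell without severe replicate 2.

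Of 15 endothelial genes tested, 6 rose (40%, against 6.14% of all genes) and none fell (median 0.36). Kdr, the main receptor for VEGF, had signals of 509.6, 319.6 and 409.5 in severe and 170.0, 193 and 234 in mild joints, and Emcn, a surface sialomucin of capillaries and veins, had 486, 335 and 443 in severe and 254, 198 and 234 in mild joints. Both rose, by 0.98 ± 0.19 and 0.83 ± 0.15 (adjusted p = 0.00589 and 0.00518, limma), without overlap, and were called whichever array was left out. The other 4 were Pecam1 (0.48), Tie1 (1.36), Plvap (0.81) and Egfl7 (0.59), each of whose calls was lost without mild replicate 2, severe replicate 1 or severe replicate 3, those of Pecam1, Tie1 and Egfl7 also without mild replicate 3. The Plvap change was 0.53 without mild replicate 2. The count was 2 with any 1 of mild replicate 2, severe replicate 1 and severe replicate 3 left out, 3 without mild replicate 3, 4 without mild replicate 1 and 1 with arrays scaled on hybridization controls. Vegfa, the ligand of Kdr, fell, with signals of 263, 292 and 289.6 in severe and 393, 595 and 363 in mild joints and a change of -0.62 ± 0.18 (adjusted p = 0.0358, limma). Without mild replicate 2 it was -0.41 (adjusted p = 0.166), and the call was also lost without mild replicate 1, severe replicate 1 or severe replicate 3. Among 9 smooth muscle and pericyte genes, Pdgfrb (0.82 ± 0.23), Cspg4 (0.56 ± 0.15) and Mcam (0.53 ± 0.16), all markers of pericytes, rose (adjusted p = 0.033, 0.0256 and 0.0393, limma; 33.3%, against 6.14% of all genes). None of the 9 did so without severe replicate 1, without severe replicate 3, without mild replicate 1, without mild replicate 2 or with arrays scaled on hybridization controls, and 1 did with the array medians aligned. The Pdgfrb change was 0.49 without mild replicate 2.

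Growth factor genes of the TGF-beta, activin and BMP families gave 5 of 16 higher (31.2%, against 6.14% of all genes) and 1 lower (6.25%, near the 6.13% of all genes), with a median of 0.38. With arrays scaled on hybridization controls 1 was higher and none lower, and with the array medians aligned 2 were higher. Grem1, a secreted BMP antagonist, had signals of 82.5, 92.6 and 98.7 in severe and 35.4, 31.2 and 31.1 in mild joints and rose by 1.14 ± 0.24 (adjusted p = 0.00923, limma). Nog, another BMP antagonist, had signals of 73.1, 54 and 53.7 in severe and 125, 129 and 114 in mild joints and a change of -0.87 ± 0.18 (adjusted p = 0.009, limma), so it fell. These antagonists moved in opposite directions, each without overlap and each called whichever array was left out, but the Nog call was lost with arrays scaled on hybridization controls (adjusted p = 0.067). Inhba, the activin A subunit, rose by 0.71 ± 0.22 and Tgfb3 by 0.49 ± 0.14 (adjusted p = 0.0474 and 0.0341, limma), while the other 2 that rose were the gene of the secreted glycoprotein follistatin-like 1, Fstl1 (0.89) and the matrix protein gene Ltbp2 (1.07). The Ltbp2 change was 0.70 without mild replicate 2. Each of these 4 calls was lost without mild replicate 2 and without severe replicate 1, and each also without 2 or 3 of the other arrays. The count of genes that rose was 1 without severe replicate 1 or mild replicate 2 and 2 without severe replicate 3 or mild replicate 1. In the Wnt list 1 of 11 rose (9.09%, near the 6.14% of all genes), Dkk3, a secreted protein of the Dickkopf family. It rose by 1.60 ± 0.41 (adjusted p = 0.0216, limma) and by 0.99 without mild replicate 2 (adjusted p = 0.0819). Its call was also lost without severe replicate 1 or severe replicate 3.

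Inflammatory mediators showed few calls. None of 12 proinflammatory cytokine genes was called in either direction (limma; 2 at an unadjusted p under 0.05, median 0.19), while 1 was higher without mild replicate 3 and 1 lower with a pseudocount of 64. Il6, a cytokine of synovial fibroblasts and macrophages, had signals of 285, 422 and 599 in severe joints and 705, 1074 and 735 in mild joints. Every severe joint was below every mild one, and the change was -0.96 ± 0.34 (adjusted p = 0.0745, limma; interval -1.67 to -0.24), which did not pass in any of the 6 fits without 1 array and did pass with a pseudocount of 64 (-0.88, adjusted p = 0.0403, limma). Naive joints had Il6 signals of 1.8, 14.1 and 0.7, so both groups were far above that level. Il1b, a cytokine of myeloid cells, had signals of 936, 663 and 802 in severe and 672, 525 and 705 in mild joints, which overlapped, and a change of 0.33 ± 0.25 (adjusted p = 0.418, limma; interval -0.20 to 0.86). Tsc22d3, a glucocorticoid-induced leucine zipper gene and the 1 called gene of 13 cytokine antagonists and anti-inflammatory genes (7.69%, near the 6.13% of all genes), had signals of 996, 1600.2 and 864 in severe and 2197, 2100.2 and 2206 in mild joints. It fell, with a change of -0.95 ± 0.18 (adjusted p = 0.00588, limma), without overlap and without dependence of the call on any 1 array. Another 4 genes of that list were called higher without mild replicate 3, and none of it was called lower with arrays scaled on hybridization controls.

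Neutrophil and monocyte genes gave 1 call of 14, higher (7.14%, near the 6.14% of all genes; median 0.48). The count was 3 without mild replicate 3, 2 with a pseudocount of 64 and 0 with a pseudocount of 1 or with arrays scaled on hybridization controls. Cxcr2, the receptor that guides neutrophils, had signals of 169, 145 and 228 in severe and 65.9, 111 and 95.2 in mild joints and rose by 0.89 ± 0.20 (adjusted p = 0.0132, limma). The call was lost without severe replicate 1 (adjusted p = 0.0554), severe replicate 3 (adjusted p = 0.0629) or mild replicate 1 (adjusted p = 0.0603). S100a8, a subunit of the alarmin calprotectin, had signals of 4720.5, 3398 and 3595 in severe and 1538, 1466 and 3456 in mild joints, and S100a9, the other subunit, had 5457, 3693 and 5048 in severe and 1843, 1953 and 3920.3 in mild joints. In both genes mild replicate 3 reached the severe range while mild replicates 1 and 2 did not. The changes were 0.96 ± 0.54 and 0.94 ± 0.48 (adjusted p = 0.261 and 0.213, limma), with intervals of -0.20 to 2.11 and -0.08 to 1.97. Csf3r, the receptor for the neutrophil growth factor G-CSF, had a log2 fold change of 0.76 ± 0.29 (adjusted p = 0.0978, limma), and passed without mild replicate 3 (adjusted p = 0.0202). Saa3, an acute-phase protein of inflamed tissue, rose by 0.95 ± 0.29 (adjusted p = 0.0463, limma), a call lost without severe replicate 1 or 3 and without mild replicate 1 or 2.

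Of 17 macrophage markers none was called (limma; 3 at an unadjusted p under 0.05, median 0.14). Cd68, a lysosomal protein of macrophages, had signals of 742, 507 and 779 in severe and 524, 363 and 505 in mild joints, with overlap, and a change of 0.52 ± 0.26 (adjusted p = 0.209, limma; interval -0.04 to 1.08). Cd163, the haemoglobin receptor of resident macrophages, had 94.5, 50 and 129 in severe and 234, 147 and 181 in mild joints, all severe values under all mild ones, with a change of -0.97 ± 0.35 (adjusted p = 0.0764, limma; interval -1.71 to -0.24). None of 11 genes of MHC class II presentation was called (1 at an unadjusted p under 0.05, median 0.04), among them the protease gene Ctss, with signals of 3688, 3778 and 4767 in severe and 2954, 2162 and 4177 in mild joints and a change of 0.44 ± 0.31 (adjusted p = 0.375, limma; interval -0.22 to 1.09). None of 20 cell cycle genes was called (2 at an unadjusted p under 0.05, median 0.14), and none in any of the 6 fits without 1 array. Top2a, a DNA topoisomerase of dividing cells, had 452, 330.3 and 412 in severe and 279, 181 and 377 in mild joints, with overlap, and a change of 0.54 ± 0.26 (adjusted p = 0.181, limma; interval -0.01 to 1.08). A missed threshold does not show that these genes were alike in severe and mild joints. Without mild replicate 3, 2 of the macrophage markers and 1 of the MHC class II genes were called higher. Cd163 was called lower with quantile normalization (-1.05, adjusted p = 0.0497) and with arrays scaled on hybridization controls (-1.12, adjusted p = 0.0358, both limma).

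All called leukocyte-attracting and interferon genes were higher in severe joints. Of 22 chemokine genes 4 rose (18.2%, against 6.14% of all genes; median 0.33): Cxcl9, a T cell chemokine induced by interferon gamma, Ccl4 and Ccl5, chemokines of monocytes and T cells, and Cxcl12, a chemokine of stromal cells. Cxcl9 was dim, with signals of 57.2, 40.1 and 68.1 in severe and 7.2, 4.8 and 13.9 in mild joints, and rose by 1.53 ± 0.35 (adjusted p = 0.0145, limma). Its mild signals were under the filter level, the 40th percentile of their arrays (27.7, 29.4 and 26.5), and its severe signals above it. Cxcl9 thus passed the filter only through arrays outside the mild group. Cxcl12 was bright, with 5864, 4723 and 7291 in severe and 3038, 2152 and 4897 in mild joints, and rose by 0.88 ± 0.27 (adjusted p = 0.0461, limma) with overlap in 1 pair. Ccl4 rose by 0.68 ± 0.19 and Ccl5 by 0.83 ± 0.23 (adjusted p = 0.0294 and 0.0296, limma). None of the 22 was called without severe replicate 1 or without mild replicate 2, 1 was called without mild replicate 1 or severe replicate 3, 2 with a pseudocount of 1 or with arrays scaled on hybridization controls, and 6 without mild replicate 3. Of 14 interferon response genes all had a log2 fold change above 0 and 4 rose (28.6%, against 6.14% of all genes; median 0.61): Irf1 (0.45), Ifit3 (0.70), Rsad2 (1.28) and Gbp2 (0.97). Gbp2, a GTPase induced by interferon gamma, had the lowest p of them, with signals of 234, 192 and 299.8 in severe and 134, 78.7 and 137 in mild joints and an adjusted p of 0.0171 (limma). The count was 0 without severe replicate 1 or severe replicate 3, 1 without mild replicate 1 or mild replicate 2 or with the array medians aligned, 2 with arrays scaled on hybridization controls, and 8 without severe replicate 2.

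Of 11 complement genes 3 rose (27.3%, against 6.14% of all genes; median 0.51), or 1 with arrays scaled on hybridization controls: C1ra and C1s1, the proteases that start the classical pathway, and Cfb, of the alternative pathway, whose adjusted p of 0.04998 (limma) lay just under the threshold. C1ra had signals of 1284, 903 and 1640.5 in severe and 614, 298 and 682 in mild joints and rose by 1.28 ± 0.29, and C1s1 rose by 1.33 ± 0.35 (adjusted p = 0.0138 and 0.0254, limma). Without mild replicate 2 the changes were 0.92 and 0.77 and no complement gene was called, as was the case without severe replicate 1 or without severe replicate 3. Sdc1, a proteoglycan of plasma cells that epithelium and stroma also carry, was the 1 called gene of 8 B cell and plasma cell markers (12.5% of a short list, against 6.14% of all genes). Its signals were 1654, 1131 and 1182 in severe and 306, 281 and 687 in mild joints, apart in every pair, and it rose by 1.70 ± 0.26 (adjusted p = 0.00209, limma), called whichever array was left out. The 8 T cell markers had a median of -0.09, and 3 of them had a change above 0. Among them 1 rose, Cd5 (12.5% of a short list, against 6.14% of all genes). Its change was 0.90 ± 0.28 (adjusted p = 0.0477, limma), from dim signals of 51.3, 34.2 and 51.2 in severe and 5.8, 24.4 and 23.3 in mild joints. All mild signals of Cd5 were under the filter level of their arrays, so it passed the filter only through other groups. The Cd5 call was lost without severe replicate 1 or 3 or mild replicate 1 or 2. It was also lost with a pseudocount of 1, quantile normalization, the array medians aligned or arrays scaled on hybridization controls. Of 15 prostanoid and leukotriene genes 2 rose (13.3%, against 6.14% of all genes), or 1 with arrays scaled on hybridization controls. These were the prostaglandin E2 receptor gene Ptger4 (0.99 ± 0.24) and the prostaglandin D synthase gene Ptgds (0.76 ± 0.20), with adjusted p of 0.0192 for Ptger4 and 0.0276 for Ptgds (limma). Ptger4 changed by 0.65 without mild replicate 2, and both calls were lost without it, without severe replicate 1 and without severe replicate 3, that of Ptgds also without mild replicate 1.

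Mitochondrial energy genes were lower in severe joints. Of 23 oxidative phosphorylation genes tested, all had a log2 fold change under 0, 14 fell (60.9% against 6.13% of all genes) and none rose, with a median of -0.58. The count was 1 without severe replicate 1, 2 without mild replicate 2, 4 without mild replicate 1 and 20 without mild replicate 3. It was 1 with arrays scaled on hybridization controls and 17 with the array medians aligned. The summed signal of the list was 47566, 58790 and 63648 in severe joints and 80864, 93976 and 65359 in mild joints. Severe replicate 3 and mild replicate 3 were close in this sum, and the groups did not overlap. Cox7a1, the heart and muscle form of a cytochrome oxidase subunit, had signals of 304, 371 and 445 in severe and 1365, 2182 and 914 in mild joints. All severe joints were below all mild ones. It fell, with a change of -1.88 ± 0.26 (adjusted p = 0.0011, limma) that held whichever array was left out. The other called members fell by less. Ndufv1, a complex I subunit, had signals of 1203, 1625 and 1477 in severe and 2553, 3161 and 1899.5 in mild joints (-0.80 ± 0.18, adjusted p = 0.0134, limma). Sdha, the flavoprotein of complex II, had 1701, 1946 and 2014 in severe and 2893, 3775 and 2356 in mild joints (-0.65 ± 0.15, adjusted p = 0.0145, limma). Both calls were lost without mild replicate 2 (adjusted p = 0.0682 and 0.0656) or severe replicate 1. The naive joints had Sdha signals of 5639.6, 5089 and 5433, above every swollen joint.

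Of 17 fatty acid oxidation genes 4 fell (23.5%, against 6.13% of all genes) and 1 rose (5.88%, near the 6.14% of all genes), with a median of -0.39. The number that fell was 1 without severe replicate 1, 2 without mild replicate 1 or 2, 9 without mild replicate 3, 8 without severe replicate 2 and 1 with arrays scaled on hybridization controls, where none rose. Pdk4, a kinase that turns muscle from glucose to fat as fuel, had signals of 2719.7, 3519.9 and 2904 in severe and 5564, 5045 and 5459.5 in mild joints and fell, with a change of -0.82 ± 0.14 (adjusted p = 0.00382, limma), called whichever array was left out. Acadm, the medium-chain acyl-CoA dehydrogenase, changed by -0.87 ± 0.18 (adjusted p = 0.00792, limma), a call lost without severe replicate 1 (adjusted p = 0.0554). Hadhb (-1.05) and Etfdh (-0.69) were the other 2 that fell, with calls lost without mild replicate 1, mild replicate 2 or severe replicate 1, and that of Hadhb also without severe replicate 3. Cpt1a, the liver form of the enzyme that brings fatty acids into mitochondria, rose by 0.72 ± 0.16 (adjusted p = 0.0136, limma), a call lost without mild replicate 2, severe replicate 1 or severe replicate 3. Of 18 glycolysis genes only Hk2, the hexokinase of muscle and fat, was called (5.56%, near the 6.13% of all genes). It had signals of 976, 1372 and 987 in severe and 2323, 2524 and 2049.8 in mild joints and fell, with a change of -1.05 ± 0.15 (adjusted p = 0.00123, limma) that held whichever array was left out, while 6 of the 18 were lower with quantile normalization and 4 without severe replicate 3. Of 13 adipocyte genes tested 3 fell (23.1%, against 6.13% of all genes), Plin4 (-1.96 ± 0.42), Slc2a4 (-1.04 ± 0.26) and Gpd1 (-0.87 ± 0.26), with adjusted p of 0.0104, 0.0198 and 0.043 (limma). The 14 genes of that list on the array, 1 of them not tested, summed to 6944, 7603 and 9636 in severe joints and to 10634, 11392 and 9703 in mild joints, apart by a small margin. All 3 of the called genes are active in muscle too, and all 3 calls were lost without severe replicate 1, those of Slc2a4 (-0.67) and Gpd1 (-0.49) also without mild replicate 2 and that of Gpd1 in every such fit but the one without mild replicate 3. Adipoq, the adipocyte hormone adiponectin, had 298, 126 and 498 in severe and 539, 206 and 597 in mild joints, which overlapped (-0.57 ± 0.50, adjusted p = 0.485, limma; interval -1.64 to 0.49).

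**Figure D4:**
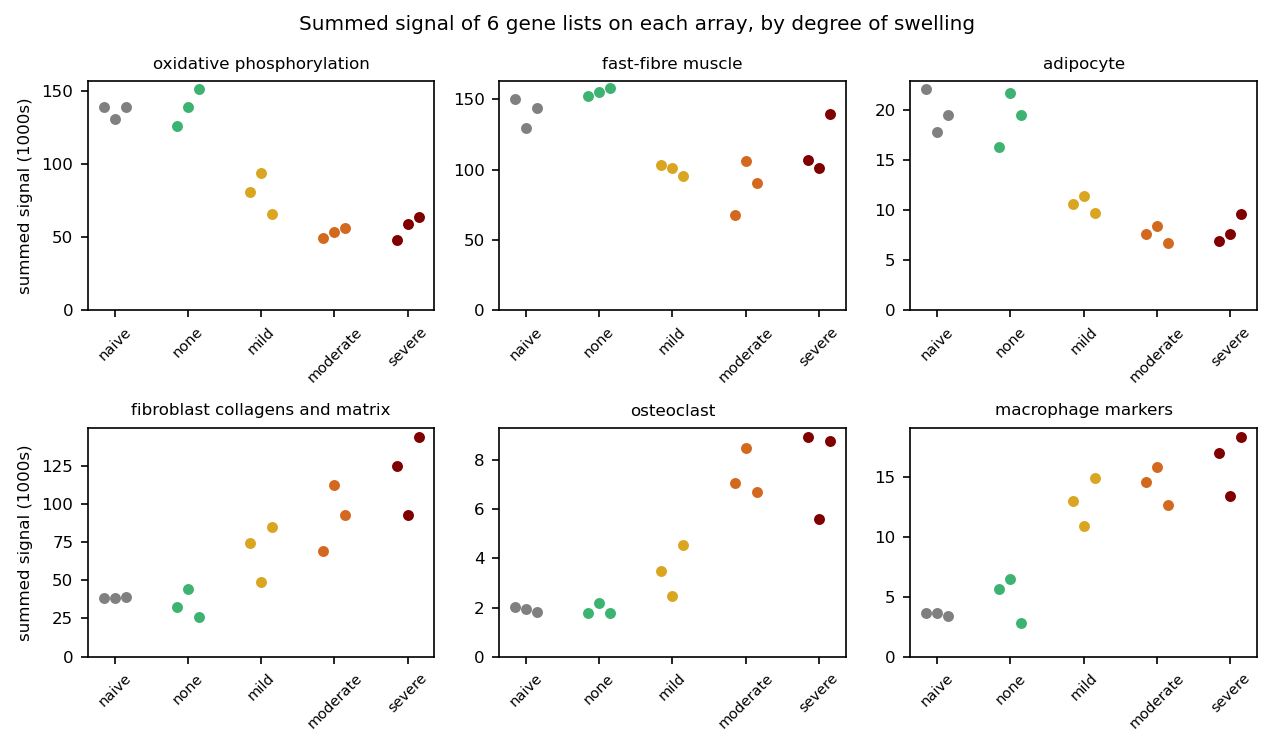
Summed signal (in units of 1000, linear axis from 0) of 6 gene lists on each of the 15 arrays, from naive to severe swelling, 1 point for each array. Oxidative phosphorylation sums are 47566, 58790 and 63648 in severe and 80864, 93976 and 65359 in mild joints, and fast-fibre muscle sums overlap between these groups.

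Of the 15 largest decreases, 9 are given here, among them those of the muscle enzyme genes Nmrk2, Ckmt2 and Fbp2. Nmrk2, the muscle kinase that makes NAD from nicotinamide riboside, had signals of 249, 262 and 503 in severe and 2049, 2359.8 and 1664 in mild joints and a change of -2.58 ± 0.24 (adjusted p = 9.9e-05, limma). Ckmt2, the mitochondrial creatine kinase of muscle, had 499, 633 and 1108 in severe and 3296, 4255 and 1716 in mild joints, a change of -2.01 ± 0.29 (adjusted p = 0.00138, limma). Fbp2, the muscle fructose bisphosphatase, had 119.8, 159 and 266 in severe and 860.1, 1389.6 and 533 in mild joints, a change of -2.22 ± 0.31 (adjusted p = 0.00123, limma). In each gene the highest severe joint, replicate 3, was under the lowest mild joint, also replicate 3. Dhrs7c, a short-chain dehydrogenase of muscle reticulum, changed by -2.40 ± 0.40 and Mylk4, a myosin light chain kinase, by -2.09 ± 0.25 (adjusted p = 0.00334 and 0.000722, limma). Asb11, a substrate adaptor for protein degradation, changed by -2.05 ± 0.19, with signals of 284, 407 and 469 in severe and 1613, 1845 and 1437 in mild joints (adjusted p = 9.9e-05, limma). Cd24a, a small surface glycoprotein of muscle and blood cell precursors, had 793, 781 and 1192 in severe and 3833, 4077 and 3429 in mild joints and changed by -2.04 ± 0.20 (adjusted p = 9.9e-05, limma). Mlf1 (-2.48 ± 0.33, adjusted p = 0.000856) and Tlcd3b (-2.29 ± 0.33, adjusted p = 0.00126, both limma) were also among the 15. All 9 genes were called whichever array was left out.

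None of 14 genes of fast muscle fibres was called (limma; 2 at an unadjusted p under 0.05), and their median was 0.21, or -0.15 with quantile normalization. In single settings this differed: 1 was higher without severe replicate 2 and 1 was lower with arrays scaled on hybridization controls. Acta1, the actin of skeletal muscle, had signals of 11027, 8837 and 14914 in severe and 8012, 7124 and 7989 in mild joints, all severe values above all mild ones, with a change of 0.56 ± 0.21 (adjusted p = 0.0987, limma; interval 0.10 to 1.01). Atp2a1, the calcium pump of fast fibres, had 11179, 9038 and 14741 in severe and 8912, 8421 and 8724 in mild joints (0.39 ± 0.19, adjusted p = 0.185, limma; interval -0.01 to 0.80). Tnnc2, the fast troponin C, had a log2 fold change of 0.49 ± 0.17 (adjusted p = 0.0768, limma). Without severe replicate 2, Acta1 and Tnnc2 passed (adjusted p = 0.0323 and 0.0296). Of 16 muscle genes of any fibre type 4 fell (25.0%, against 6.13% of all genes), Ckmt2, Perm1 (-1.64 ± 0.36), Ldb3 (-0.81 ± 0.21) and Myot (-0.81 ± 0.24), and the count was 1 without severe replicate 1 or mild replicate 2 and 2 without mild replicate 1 or with arrays scaled on hybridization controls. Perm1 is a regulator of muscle mitochondria, and Ldb3 and Myot are proteins of the Z-disc. Summed over the 16 genes, signals were 68397, 70724 and 81429 in severe joints and 72409, 75840 and 63953 in mild joints, which overlapped. Of 12 slow-fibre genes 1 fell, Ankrd2, given below (8.33%, near the 6.13% of all genes), or 5 without mild replicate 3 and 4 with arrays scaled on hybridization controls. Myl3, a slow myosin light chain, had signals of 15.5, 15.2 and 39.6 in severe and 232, 403 and 31.1 in mild joints, a change of -2.16 ± 0.79 (adjusted p = 0.0838, limma) that passed without mild replicate 3 alone (-3.09, adjusted p = 0.0106). The muscle sums thus overlapped between the groups while those of fat genes and of oxidative phosphorylation did not, and the part of the dissection in these results was not tested.

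Genes that muscle turns on after injury or loss of its nerve gave 5 of 17 higher (29.4%, against 6.14% of all genes) and 1 lower (5.88%, near the 6.13% of all genes), with a median of 0.22. Sln, which encodes sarcolipin, an inhibitor of the calcium pump, had signals of 1306, 2396 and 395 in severe and 222, 202 and 90.3 in mild joints. Severe replicate 3 was far below the other severe joints and still above every mild one. Sln rose by 2.63 ± 0.59 (adjusted p = 0.0126, limma), a 7.96-fold difference of means, and the call was lost without severe replicate 1 (adjusted p = 0.0701). Ncam1, an adhesion molecule of denervated fibres, nerve and stromal cells, had 295, 228 and 170.1 in severe and 59.1, 48.2 and 122 in mild joints, rose by 1.47 ± 0.27 (adjusted p = 0.0049, limma) and was called whichever array was left out. Of its 4 other probe sets tested, 1 was also called higher and none lower. Myh3, the embryonic myosin heavy chain, had 150.1, 204 and 104 in severe and 57.5, 38.9 and 35.7 in mild joints and rose by 1.47 ± 0.34 (adjusted p = 0.0147, limma), a call lost without mild replicate 2 or severe replicate 1. Chrng, the fetal acetylcholine receptor subunit, was dim, with 50.3, 55.6 and 38.4 in severe and 6.3, 8 and 5.3 in mild joints. Chrng was under the filter level on all mild arrays, so it passed the filter only through other groups. Its groups were apart, but the call (1.50 ± 0.44, adjusted p = 0.0383, limma) was lost whichever array was left out (adjusted p between 0.0588 and 0.132). Runx1, a transcription factor of denervated muscle and of blood cells, rose by 0.97 ± 0.25 (adjusted p = 0.024, limma), a call lost without mild replicate 2, severe replicate 1 or severe replicate 3. Trim63, the ubiquitin ligase MuRF1 of muscle wasting, was the member that fell, with signals of 1636, 4074 and 1252 in severe and 5134, 4043 and 5537 in mild joints, where severe replicate 2 overlapped the mild range. Its change was -1.25 ± 0.32 (adjusted p = 0.0212, limma), and the call was lost without mild replicate 1, severe replicate 1 or severe replicate 3. The list's count of genes that rose was 1 without severe replicate 1, 2 without mild replicate 2 and 3 without severe replicate 3, and 4 of the 17 fell without severe replicate 2 and 2 with arrays scaled on hybridization controls.

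**Figure D5:**
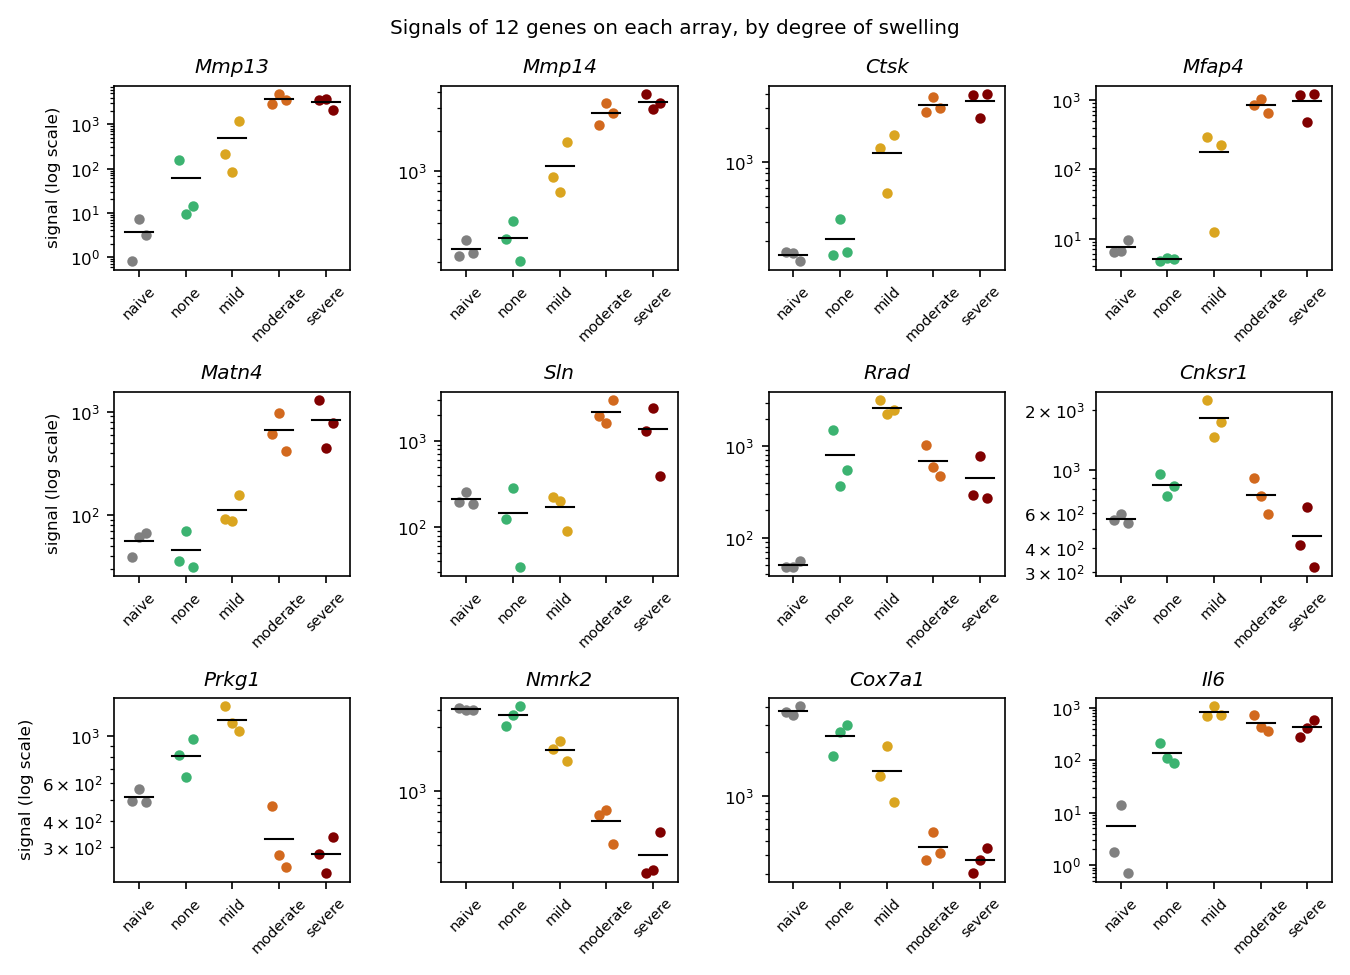
Signal (log axis) of 12 genes on each of the 15 arrays, from naive to severe swelling, with a bar at each group mean. Mmp13, Mmp14, Ctsk, Mfap4, Matn4 and Sln lie higher on all severe than on all mild arrays, Rrad, Cnksr1 and Prkg1 are highest on the mild arrays, and the means of Nmrk2 and Cox7a1 are lower at each step from naive to severe.

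Some genes that were lower in severe joints were highest in mild ones among all 5 groups. Rrad, a small GTPase that restrains calcium channels, had the largest decrease of all genes tested, with signals of 295, 773 and 269.5 in severe and 3168, 2230.0 and 2461 in mild joints. Its change was -2.66 ± 0.43 (adjusted p = 0.00311, limma). The naive joints had Rrad signals of 47.6, 47.7 and 55, the joints without swelling 1508, 363 and 554 and the moderately swollen joints 1018, 598 and 472, so the mild joints were above every other array. Cnksr1, a scaffold of Ras signalling, had 411, 643 and 318 in severe and 2249.8, 1462 and 1751 in mild joints, a change of -1.99 ± 0.22 (adjusted p = 0.00031, limma). Naive joints had 550.5, 593 and 531, unswollen joints 947, 730.1 and 822 and moderately swollen joints 902, 735 and 593, again all under the lowest mild joint. Prkg1, the cGMP-dependent protein kinase, had 278, 226 and 336 in severe and 1383, 1152 and 1053 in mild joints, a change of -2.04 ± 0.21 (adjusted p = 0.000232, limma), and the highest signal outside the mild group was 965.2. Asb5, an ankyrin and SOCS box protein of muscle, and Togaram2, a microtubule protein, changed by -2.23 ± 0.28 and -1.98 ± 0.25 (adjusted p = 0.000838 and 0.000838, limma). Their mean signals were also highest in mild joints, although the Asb5 range of mild joints overlapped those of naive joints and joints without swelling. All 5 genes were called whichever array was left out.

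Single stress genes were also lower in severe joints, in lists whose shares of called genes were near those of all genes. Dnajb9, a chaperone of the endoplasmic reticulum, had signals of 716, 996 and 784 in severe and 1819.6, 1882 and 1814 in mild joints and changed by -1.14 ± 0.14 (adjusted p = 0.000838, limma). The mild joints lay in a narrow range above all other 12 arrays, and the call was made whichever array was left out. Ankrd2, a stretch-responsive muscle protein and the 1 called member of 12 slow-fibre genes, had 232, 271 and 320.0 in severe and 1141, 616 and 494 in mild joints and changed by -1.32 ± 0.26 (adjusted p = 0.0069, limma), also called whichever array was left out. Its moderate signals of 407, 505 and 269.8 overlapped the mild ones. Hspb1, a small heat shock protein, had 4218, 4066 and 3223 in severe and 7927, 5884 and 6699 in mild joints and changed by -0.83 ± 0.21 (adjusted p = 0.0225, limma), a call lost without mild replicate 1, severe replicate 1 or severe replicate 3. In these lists Dnajb9 was 1 of 2 called genes among 19 of the secretory pathway. The other, Kdelr3, a retrieval receptor, rose (0.98 ± 0.27, adjusted p = 0.0308, limma). Each was 5.26% of that list, near the 6.13% of all genes that fell and the 6.14% that rose. Hspb1 was the 1 called gene of 16 heat shock and immediate early genes (6.25%, near the 6.13% of all genes). The medians of these lists were 0.10 and 0.08. The Kdelr3 call was lost without mild replicate 1 or 2 and without severe replicate 1 or 3.

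The moderately swollen joints show where along the range of swelling these differences lie, and since the steps share arrays their changes are given side by side only. Between severe and moderate joints 0 of the 14314 genes were called (0.0%, limma), and 888 had an unadjusted p under 0.05. For Mmp13 the change was 3.62 ± 0.73 for moderate minus mild and -0.27 ± 0.73 for severe minus moderate. For Mmp14 these were 1.42 ± 0.28 and 0.29 ± 0.28, for Ctsk 1.54 ± 0.35 and 0.10 ± 0.35, and for Matn4 2.38 ± 0.36 and 0.27 ± 0.36. In these 4 genes the larger value was that between mild and moderate swelling. For Cox7a1 the changes were -1.60 ± 0.26 and -0.27 ± 0.26, and for Ckmt2 -1.92 ± 0.29 and -0.09 ± 0.29, which had the same form. Some other genes also had the larger value between mild and moderate swelling. Their values above moderate swelling were further from 0 than those of the genes just given, but none was called there. The changes were -1.75 ± 0.24 and -0.83 ± 0.24 for Nmrk2, -1.22 ± 0.28 and -1.01 ± 0.28 for Asb5, -1.95 ± 0.43 and -0.72 ± 0.43 for Rrad, -1.27 ± 0.22 and -0.72 ± 0.22 for Cnksr1, and -0.61 ± 0.14 and -0.53 ± 0.14 for Dnajb9. For Cxcr2 the change was 0.19 ± 0.20 for moderate minus mild and 0.70 ± 0.20 for severe minus moderate. Sln had 3.59 ± 0.59 and -0.96 ± 0.59, its moderate signals of 1957, 1625 and 2958 lying above 2 of the 3 severe ones.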

How the data were processed

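Affymetrix signals of 15 mouse knee synovium arrays were used, 3 in each of 5 groups named by the sample titles. The deposited values are MAS5 intensities of the authors, per the submitters' processing notes; their version is not stated in the sources used here. They had a trimmed mean of 150.001 on every array. Of 45101 probe sets, 34958 had 1 gene symbol, 932 had several and 9211 none in the platform annotation, and symbols were checked against RefSeq (GRCm38.p6), where 34897 matched.

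Each of 18193 genes was taken by its probe set of highest mean. Genes above their array's 40th percentile on at least 3 arrays were kept (14314). Differences were tested on log2(signal + 16), with no further normalization, in limma 3.58.1 (R 4.3.3): group means over all 15 arrays, empirical Bayes with an intensity trend, 10 residual and 5.52 prior degrees of freedom, Benjamini-Hochberg adjustment, threshold 0.05. The fit was tested on simulated data. Principal components used the probe sets that passed the same filter.

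Named genes were the 15 largest changes in each direction among called genes without overlap, up to 3 genes with the lowest p in each of 45 lists, and a panel; other members were named after their values were seen. The comparison, the lists and the panel were chosen with earlier results of these data known, and lists were described without a test. The alternatives were other pseudocounts, filters, scalings, summaries of probe sets, models and weights, a replicate block, and leaving out each array.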

Additional observations from a re-analysis of the deposited data

How the results depend on the processing

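Each of the 20 alternatives was compared with the 879 genes called higher and 878 called lower. None of the 127 called genes named here changed direction where it had a value, which 121 had with the filter at the 60th percentile and 126 with probe sets averaged. These fits reuse the same arrays and the genes were picked by their calls, so an unchanged sign says little. Still called were 28 of the 127 with only the 6 severe and mild arrays, 42 without severe replicate 1, 60 without mild replicate 2 and 63 with arrays scaled on hybridization controls. Leaving out 1 array at a time gave 117 to 1389 genes called higher and 185 to 1306 called lower. With the array medians aligned 532 were called higher. Scaling on hybridization controls gave 147 higher and 242 lower, fitting only the 6 severe and mild arrays gave 30 and 53, and taking every probe set by itself gave 1402 and 1546 of 31485 tested. Array quality weights gave 2904 higher and 2308 lower, with a weight of 24.7 on mild replicate 1 against 0.313 to 1.28 on the other 14 arrays, so these counts rest largely on that array. Weights estimated gene by gene, an alternative chosen after seeing the data, gave 1663 and 1453, with 3.42 on mild replicate 1. The cause of these differences was not tested, except that the 6-array fit has fewer samples and single probe sets are more numerous. The other settings stayed within 1.5 times the main counts: pseudocounts of 1 and 64, no filter or one at the 60th percentile, quantile normalization, averaging over the probe sets of each gene and no intensity trend. Under that averaging, 11 called genes changed sign without being called in the other direction.

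With the replicate number as a block, 611 genes were higher and 695 lower, of which 605 and 687 were also called without it. The deviations of same-numbered severe and mild arrays from their group means correlated by 0.041, 0.222 and 0.038, and only replicate 2 correlated best with its own number. Deviations within a group cancel out, which ties these correlations to each other. They cannot decide whether the numbers pair the arrays.

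The 3 arrays in each group limit the precision. Signals near or below 16 on this scale have little resolution, so the size of changes of dim genes depends on the pseudocount. With pseudocounts of 1, 16 and 64 the change was 2.70, 1.50 and 0.67 for Chrng and 2.62, 1.53 and 0.71 for Cxcl9. Chrng was not called with 64. Swelling, the share of muscle and fat in the sample and RNA integrity were not varied separately, and their parts in the results cannot be told apart.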

Other observations

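A few lists held a single called gene, which was not described above. Myd88, the adaptor of most Toll-like receptors, was the 1 called gene of 16 in the Toll-like receptor and inflammasome list (6.25%, near the 6.14% of all genes). Its signals were 629.5, 462 and 704 in severe joints, 414, 326 and 462 in mild joints and 112, 101 and 128 in naive joints, and it rose by 0.55 ± 0.17 in severe against mild joints (adjusted p = 0.0474, limma). The nerve and Schwann cell list had only 5 markers tested, with a median of 0.02. Pmp22, a myelin protein that fibroblasts also express, was the 1 called gene of these (20.0%, against 6.14% of all genes). It rose by 0.56 ± 0.16, with signals of 1398, 993 and 1457 in severe and 933, 666 and 998 in mild joints (adjusted p = 0.0332, limma). Bhlhe41, a repressor of the circadian clock, was the 1 called gene of 14 clock genes (7.14%, near the 6.13% of all genes). It fell, with a change of -0.75 ± 0.22 and signals of 53.4, 67 and 34.2 in severe and 98.8, 129.5 and 66 in mild joints (adjusted p = 0.0361, limma). In all 3 genes 1 severe joint lay at or inside the edge of the mild range, and the calls were lost without mild replicate 1 or 2 and without severe replicate 1 or 3. All 3 calls were also lost with arrays scaled on hybridization controls. Those of Myd88 and Pmp22 were lost with the array medians aligned and without the intensity trend. Without mild replicate 3, 3 genes of the Toll-like receptor list were higher and 3 clock genes lower.

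No gene was called by limma among 10 of Fc gamma receptor signalling (median log2 fold change 0.40, 2 at an unadjusted p under 0.05), 7 mast cell markers (-0.21, 1), 5 keratinocyte markers (0.08, 0), 4 erythroid genes (-0.45, 1), 4 genes of marrow progenitor granules (-0.10, 0) and 3 osteoblast and osteocyte genes (0.25, 0). In the Fc gamma receptor list 1 gene was called higher without mild replicate 3 or without severe replicate 2, in the mast cell list 1 was higher without mild replicate 3, and in the erythroid list 1 was lower without mild replicate 3.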
